A study of Mus musculus with 15 samples.

Results

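The genes described here are 9 enzymes of lipid metabolism in mouse dendritic cells (DC): Hmgcs1, Idi1, Fdps, Fdft1, Sqle and Cyp51 of sterol synthesis, the stearoyl-CoA desaturases Scd1 and Scd2, and the cholesterol hydroxylase Ch25h. They were chosen by symbol: each probe set whose single gene symbol in the platform annotation is one of these names was taken, which gave 15 of the 12422 probe sets tested and 9 of the 8251 genes with a single symbol. The main probe set of a gene is the brightest, by mean log2(signal + 16) over the 15 arrays. All DC came from female NOD mice aged 6 to 8 weeks, and their bone marrow had spent 4 days in culture at 1 ng/ml GM-CSF. GM4 DC also received 1 ng/ml IL-4 and were purified on 14.5% metrizamide, whereas GM DC received no IL-4 and were purified on 16% metrizamide, so that the cytokine and the gradient cannot be told apart. The title of the series calls GM4 DC therapeutic and GM DC non therapeutic. Both types were stimulated with 10 µg/ml LPS, a bacterial cell wall product sensed by Toll-like receptors, and 50 ng/ml IFN-γ, and were collected at 0, 6 and 20 h. GM4 DC had 3, 3 and 2 arrays at these times and GM DC had 3, 2 and 2. For GM4 0 h replicate 1 the protocol does not give the GM-CSF and IL-4 doses or the gradient. Source names of GM4 DC at 0 h speak of stimulation, and the times used here are those of the sample titles.

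Animal cells build sterols from acetyl-CoA along the mevalonate pathway, whose isoprenoid intermediates also serve the prenylation of proteins. Transcription of the pathway's enzymes is driven by SREBP proteins, which are held in the endoplasmic reticulum when sterols are plentiful, while the LXR receptors sense oxysterols and switch on cholesterol export. The desaturases insert a double bond into saturated fatty acids, and Ch25h makes 25-hydroxycholesterol, an oxysterol that restrains SREBP processing, is induced by interferons in mouse macrophages and feeds the synthesis of ligands that guide B cells and DC.

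Promoter sequence was available for 4 of the 9 genes in the RefSeq promoter table of build GRCm38.p6, and the 250 bases before each gene start are shown because SREBP and inflammatory factors are known to act on genes of these kinds through such elements. Capitals mark, in the first 3 sequences, the sterol regulatory element core TCACNCCAC or the NF-Y box CCAAT, which reads ATTGG when it lies on the other strand, and in Ch25h an NF-kappaB-like motif, GGG and CC with 5 bases between. All are written 5′ to 3′ on the strand of the gene. Hmgcs1 lies at chr13:119690101-119690350 on the plus strand, Idi1 at chr13:8885356-8885605 on the plus strand, Cyp51 at chr5:4104698-4104947 on the minus strand and Ch25h at chr19:34475149-34475398 on the minus strand.
Hmgcs1: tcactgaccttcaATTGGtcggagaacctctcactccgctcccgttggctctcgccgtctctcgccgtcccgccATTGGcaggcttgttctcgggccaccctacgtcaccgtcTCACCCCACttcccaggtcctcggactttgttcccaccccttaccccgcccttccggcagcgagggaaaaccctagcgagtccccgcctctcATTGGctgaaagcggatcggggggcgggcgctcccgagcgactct
Idi1: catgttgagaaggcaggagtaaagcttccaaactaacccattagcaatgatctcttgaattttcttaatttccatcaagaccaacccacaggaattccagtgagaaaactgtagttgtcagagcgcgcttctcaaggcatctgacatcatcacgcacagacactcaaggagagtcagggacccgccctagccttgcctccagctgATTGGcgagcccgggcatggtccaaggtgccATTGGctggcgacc
Cyp51: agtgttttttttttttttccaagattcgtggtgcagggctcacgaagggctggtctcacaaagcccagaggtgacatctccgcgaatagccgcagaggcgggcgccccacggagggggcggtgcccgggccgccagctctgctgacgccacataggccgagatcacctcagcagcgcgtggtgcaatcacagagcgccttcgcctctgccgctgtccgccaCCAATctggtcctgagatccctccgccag
Ch25h: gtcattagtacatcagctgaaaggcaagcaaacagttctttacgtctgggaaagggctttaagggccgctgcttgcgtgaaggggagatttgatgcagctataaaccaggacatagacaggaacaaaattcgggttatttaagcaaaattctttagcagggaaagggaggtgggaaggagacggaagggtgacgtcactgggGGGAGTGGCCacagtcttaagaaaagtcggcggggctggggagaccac
The Hmgcs1 window held 1 sterol regulatory element core, from 137 to 129 bases before the start, and 3 CCAAT boxes. That core was found in 1.05% of 32851 windows of the same length. Idi1 had 2 CCAAT boxes and Cyp51 had 1, and CCAAT was found in 33.8% of all windows. Ch25h had 1 NF-kappaB-like match, from 48 to 39 bases before the start, a motif that all 4 windows held and that was found in 45.8% of all windows. It had no match to the STAT motif TTCNNNGAA, to the same motif with 4 bases in its spacer, or to the core of the interferon-stimulated response element, which were in 7.02%, 5.85% and 2.98% of windows. The motifs were searched on both strands, and no match in Ch25h overlapped another of these motifs. A match is a run of letters, and no binding was measured.

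Each sample was measured on 1 Affymetrix array, and the values are MAS5 signals, an intensity on a linear scale. Every array had the same 2% trimmed mean of 150.1, median signals ran from 40.1 to 48.5, and the lowest correlation between replicate arrays was 0.966. Between 29.7% and 35.3% of probe sets were below a signal of 16, where MAS5 values are noisy. The 3′ to 5′ ratio of the Gapdh control, a sign of RNA degradation when high, was 1.03 to 1.48 on GM4 arrays and 1.18 to 2.46 on GM arrays. The β-actin ratio was 1.13 to 1.44 on GM4 arrays and 1.43 to 2.26 on GM arrays. The mean log2(signal + 16) of the hybridization controls was 8.51 to 9.08 on GM4 arrays and 9.1 to 10.3 on GM arrays. This technical measure did not overlap between the types, so it cannot be told apart from them. Of the 13 DC markers all were measured. At 0 h 6 were higher and 0 lower in GM4 than in GM DC, against 6.86% and 7.12% of all probe sets. Their summed signal was 16690 to 31930 on GM4 arrays and 13230 to 29200 on GM arrays, and none of the 13 averaged below 16 in any group. Adipocyte and stromal markers, with 9 measured, summed to 541 to 1127 on GM4 arrays and 888 to 1875 on GM arrays, and 0 were higher and 4 lower in GM4 DC at 0 h. Among these markers Adipoq stayed between 7.88 and 24.2 on all 15 arrays. The mean signals of the others over the 15 arrays ran from 15.6 for Pparg to 387 for Col1a2, with 253 for Lep and 60.1 for Fabp4. The arrays measured bulk RNA, so fewer cells of a type and less RNA per cell cannot be told apart.

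Before stimulation, 3 of the 6 sterol enzymes were lower in GM4 than in GM DC and 0 were higher, with log2 differences of the 6 between -0.96 and -0.16 and a median of -0.57, against -0.06 over all probe sets. Over all 9 genes, 1 was higher and 3 were lower, while 6.86% of all probe sets were higher and 7.12% lower. A difference was called when limma's moderated test gave a Benjamini-Hochberg adjusted p under 0.05 over all 12422 probe sets. Differences are on the log2(signal + 16) scale, which understates changes of dim genes, and are given with their standard error.

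Hmgcs1, the cytosolic synthase of HMG-CoA, an early step of the mevalonate pathway, is read by probe set 94325_at. Its signal in GM4 DC was 262, 356 and 274 at 0 h, 220, 294 and 265 at 6 h, then 177 and 166 at 20 h. GM DC gave 576, 529 and 587 at 0 h, 290 and 155 at 6 h, then 154 and 194 at 20 h. All 3 unstimulated GM4 arrays lay below all 3 GM arrays, while the types overlapped at 6 and 20 h. At 0 h GM4 DC were 1.86-fold lower (log2 -0.90 ± 0.19, limma adjusted p = 0.0061). After stimulation Hmgcs1 fell 2.53-fold in GM DC by 6 h (-1.34 ± 0.21, limma adjusted p = 0.000362), whereas the change in GM4 DC, -0.18 ± 0.19, did not pass the test. The difference between these 6 h responses was 1.16 ± 0.29 and missed the threshold, at a limma adjusted p of 0.076. That difference passed without GM 6 h replicate 1, at 1.58 with an adjusted p of 0.0174. By 20 h the fall was 0.73 ± 0.21 in GM4 DC and 1.62 ± 0.21 in GM DC on the log2 scale, and both passed. The call in GM4 DC did not pass without GM4 0 h replicate 2 (-0.60) or without GM4 20 h replicate 1 (-0.77) or 2 (-0.69). The change from 6 to 20 h in GM4 DC, -0.55 ± 0.21, did not pass (limma adjusted p = 0.131), but did at -0.55 without GM 6 h replicate 1 or without GM 6 h replicate 2.

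Idi1 isomerises isopentenyl diphosphate, the building block of all isoprenoids, and is read by probe set 96269_at. GM4 DC had signals of 660, 535 and 556 at 0 h, 793, 696 and 812 at 6 h, then 179 and 111 at 20 h. The signals of GM DC were 606, 693 and 659 at 0 h, 1415 and 1118 at 6 h, then 179 and 86.0 at 20 h. Unlike the other sterol enzymes, Idi1 had its highest signals at 6 h in both types, and every 20 h array lay below every earlier one. The 6 h rise passed in GM DC (0.93 ± 0.24, 1.91-fold, limma adjusted p = 0.00965) but not in GM4 DC (0.39 ± 0.21, limma adjusted p = 0.271). Without GM 6 h replicate 1 the rise in GM DC was 0.76 with an adjusted p of 0.117. From 6 to 20 h Idi1 fell 4.96-fold in GM4 DC (-2.31 ± 0.24) and 9.03-fold in GM DC (-3.17 ± 0.26, limma adjusted p = 4.08e-06). At 6 h GM4 DC were at 767 ± 62.3 and GM DC at 1267 ± 210 (SD, n = 3 and 2). The arrays did not overlap, and the log2 difference of -0.71 ± 0.24 missed the threshold at a limma adjusted p of 0.0729. It passed without GM 20 h replicate 1 or without GM 20 h replicate 2, at -0.71 in both fits.

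Fdps makes farnesyl diphosphate, the branch point between sterols and prenyl groups. Its main probe set 160424_f_at gave 299, 265 and 206 in GM4 DC at 0 h, 167, 178 and 181 at 6 h, then 40.9 and 50.0 at 20 h. In GM DC the signals were 438, 468 and 233 at 0 h, 222 and 239 at 6 h, then 46.6 and 48.5 at 20 h. In each type both 20 h arrays lay below all earlier ones, and the 20 h values of the types overlapped. Relative to 0 h, Fdps at 20 h had fallen 4.41-fold in GM4 DC (-2.14 ± 0.24, limma adjusted p = 2.25e-05) and 5.97-fold in GM DC (-2.58 ± 0.24, limma adjusted p = 2.15e-06). The differences at 6 h, -0.50 ± 0.21 in GM4 DC and -0.63 ± 0.24 in GM DC, did not pass. GM 0 h replicate 3 was the lowest GM array at 0 h, and without it 3 further Fdps differences passed: GM4 against GM at 0 h (-0.80, adjusted p = 0.00416), and 6 h against 0 h in GM4 DC (-0.50) and in GM DC (-0.93). Probe set 99098_at followed the main one with a correlation of 0.99 over the 15 arrays and fell 5.35-fold in GM4 DC and 7.92-fold in GM DC by 20 h. The other 2 probe sets, 162281_at and 162217_r_at, ran from 5.41 to 40.4 and from 0.351 to 16.4, were below 16 on 6 and 14 arrays, and had correlations of -0.46 and -0.69 with the main one.

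**Figure D1:**
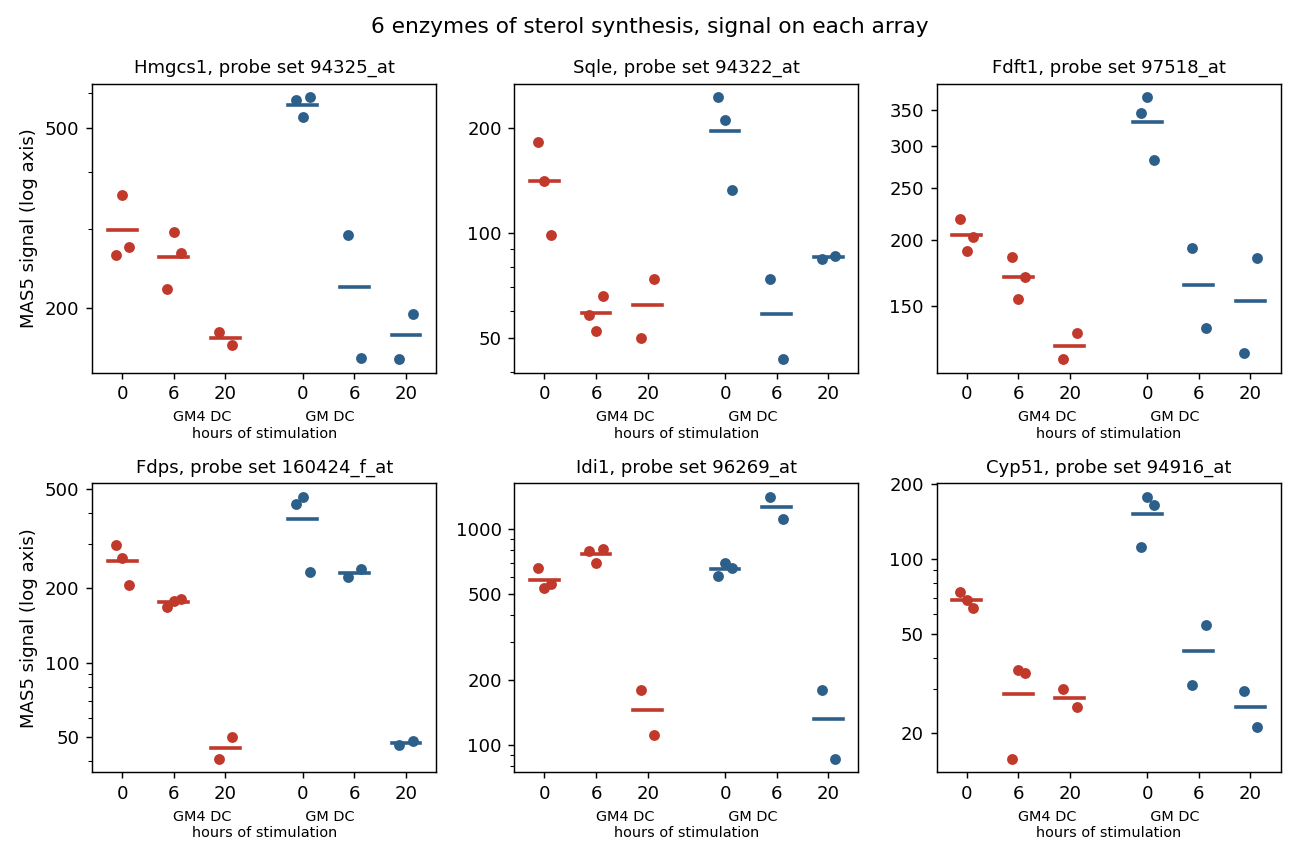
MAS5 signal (vertical log axis) of the 6 sterol enzymes on each of the 15 arrays, by hours of stimulation, with GM4 DC in red at the left and GM DC in blue at the right of each panel; points are arrays and bars are group means. Hmgcs1, Fdft1 and Cyp51 separate the types at 0 h. All enzymes but Sqle have their lowest group mean at 20 h in both types, and Idi1 is highest at 6 h.

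Fdft1, the squalene synthase that commits farnesyl diphosphate to sterols, is read by probe set 97518_at. Its signals in GM4 DC were 218, 191 and 203 at 0 h, 185, 155 and 170 at 6 h, then 119 and 134 at 20 h. GM DC had 345, 371 and 282 at 0 h, 193 and 137 at 6 h, then 123 and 185 at 20 h. Unstimulated GM4 DC lay below all GM arrays, by 0.66 ± 0.16 on the log2 scale (1.58-fold, limma adjusted p = 0.0159). That call was lost without GM4 0 h replicate 2 (-0.61) and without GM 0 h replicate 2 (-0.58). In GM DC Fdft1 fell 1.94-fold by 6 h and 2.08-fold by 20 h (-1.05 ± 0.18, limma adjusted p = 0.00055). In GM4 DC the 6 h change of -0.24 ± 0.16 did not pass, and the 20 h fall of 0.63 ± 0.18 did (limma adjusted p = 0.0262). The 20 h call was lost without any of GM4 0 h replicate 1 (-0.58), GM4 0 h replicate 3 (-0.63), GM4 20 h replicate 1 (-0.55) and GM4 20 h replicate 2 (-0.70).

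Sqle, the squalene epoxidase that catalyses the first oxygenation of the pathway, is read by probe set 94322_at. GM4 DC had signals of 182, 141 and 99.1 at 0 h, 58.3, 52.7 and 66.0 at 6 h, then 50.2 and 74.0 at 20 h. The GM arrays read 246, 210 and 133 at 0 h, 74.1 and 43.5 at 6 h, then 84.4 and 86.2 at 20 h. Every stimulated array lay below every unstimulated array of its type, and the types overlapped at 0 and 6 h but not at 20 h. By 6 h Sqle had fallen 2.05-fold in GM4 DC (-1.03 ± 0.25, limma adjusted p = 0.0104) and 2.82-fold in GM DC (-1.50 ± 0.28, limma adjusted p = 0.00112). At 20 h the falls from 0 h were 0.99 ± 0.28 in GM4 DC and 1.03 ± 0.28 in GM DC. The GM4 calls were not kept without GM4 0 h replicate 1, at -0.85 for 6 h and -0.80 for 20 h, and the 20 h call also not without GM4 0 h replicate 2 (-0.97) or GM4 20 h replicate 1 (-0.77). In GM DC the 20 h call did not pass without GM 20 h replicate 1 (-1.02) or 2 (-1.04). The difference between the types at 0 h, -0.43 ± 0.25, did not pass.

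Cyp51, the demethylase of lanosterol, is read by probe set 94916_at. Signals in GM4 DC were 73.4, 68.7 and 63.8 at 0 h, 15.8, 35.8 and 34.9 at 6 h, then 30.0 and 25.4 at 20 h. GM DC reached 111, 178 and 164 at 0 h, 31.2 and 54.3 at 6 h, then 29.6 and 21.2 at 20 h. The types were apart on all arrays at 0 h and overlapped afterwards, at signals close to the dim end of the arrays. At 0 h GM4 DC were 1.95-fold lower (-0.96 ± 0.24, limma adjusted p = 0.0159), a call lost without GM4 0 h replicate 3 (-0.92), GM 0 h replicate 2 (-0.84) or GM 0 h replicate 3 (-0.89). By 20 h Cyp51 had fallen 1.94-fold in GM4 DC (-0.95 ± 0.27, limma adjusted p = 0.0212) and 3.99-fold in GM DC (-2.00 ± 0.27, limma adjusted p = 5.92e-05). The difference between these 20 h responses, 1.04 ± 0.38, did not pass (limma adjusted p = 0.245). At 6 h the falls were 0.95 ± 0.24 in GM4 DC and 1.51 ± 0.27 in GM DC, and both passed. The 6 h call in GM4 DC was lost without GM4 0 h replicate 1 (-0.91) or GM4 6 h replicate 1 (-0.72). The 20 h call in GM4 DC was lost without GM4 0 h replicate 1 (-0.91) or 2 (-0.95) and without GM4 20 h replicate 1 (-1.03) or 2 (-0.88).

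Among the 6 sterol enzymes, 0 were higher and 2 lower at 6 h than at 0 h in GM4 DC, and 1 was higher and 4 were lower in GM DC. Of all probe sets, 5.84% were higher and 10% lower in GM4 DC, and 8.52% and 15.7% in GM DC. At 20 h all 6 enzymes were lower than at 0 h in GM4 DC, with a median of -0.97, where 12.3% of all probe sets were lower. In GM DC all 6 were lower, with a median of -1.81, where 16% of all probe sets were. The median over all probe sets lay between -0.06 and 0.04 in every comparison. Comparisons of 6 and 20 h with 0 h share the unstimulated arrays. At 6 and at 20 h, 0 of the 6 enzymes differed between GM4 and GM DC. A 6 h or 20 h response that differed between the types was called for 0 of them. Calls were also few among all probe sets, so these counts do not show that the types were alike. In GM4 against GM DC, 6.39% were higher and 4.74% lower after 6 h, while 3.14% and 1.56% were after 20 h. Differing responses were rarer, with 0.443% higher and 0.515% lower by 6 h, while those by 20 h reached 0.555% and 0.708%.

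The pairs did not all move together over the 15 arrays, which share their scaling and culture times. Pearson correlations were 0.91 between Hmgcs1 and Fdft1, 0.84 between Sqle and Fdft1, 0.83 between Fdps and Idi1, and 0.09 between Sqle and Idi1. Hmgcs1, Fdft1, Sqle and Cyp51 thus correlated with each other at 0.75 or more, whereas Idi1 had correlations of 0.45 or less with these 4.

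Proliferation markers, monocyte and macrophage markers and RNA quality also differed between the types at 0 h, and proliferation markers were lower at 20 h. From 0 to 20 h the monocyte and macrophage markers went both ways. In GM4 DC 3 were higher and 3 lower, and in GM DC 3 were higher and 4 lower. The 12 measured proliferation markers summed to 2274 to 3846 in GM4 DC and 4942 to 5746 in GM DC at 0 h, where 4 were lower and 0 higher in GM4 DC. At 20 h they summed to 867 to 920 in GM4 DC and 940 to 971 in GM DC, and 11 were lower than at 0 h in each type. Among them Mcm6 averaged below 16 in every group. The share of all probe sets that were lower in GM4 than in GM DC at 0 h was 7.12%. From 0 to 20 h the share lower was 12.3% in GM4 DC and 16% in GM DC. Of the 9 measured monocyte and macrophage markers, 8 were lower and 0 higher in GM4 DC at 0 h, with a median of -1.29 and summed signals of 4690 to 5206 in GM4 DC and 13590 to 16440 in GM DC. The 3′ to 5′ ratios given above also ran higher on GM arrays, with some overlap. With the RNA quality ratio as a covariate, the 0 h differences of Hmgcs1 (-0.84, adjusted p = 0.0988), Fdft1 (-0.78) and Cyp51 (-0.67) did not pass, and that of Fdps did (-1.04, adjusted p = 0.0166). The part of cell division or of monocytes and macrophages in these differences was not tested.

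The desaturases differed from each other in both their baseline and their time course. Scd1 was higher in GM4 DC before stimulation and lowest at 20 h in both types. Scd2 overlapped between the types at 0 h, was lowest at 6 h and was high again at 20 h. Their correlation over the 15 arrays was 0.29.

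Scd1 is read at its brightest by probe set 94056_at. GM4 DC had 609, 637 and 785 at 0 h, 178, 166 and 145 at 6 h, then 45.8 and 43.0 at 20 h. GM DC had 187, 427 and 411 at 0 h, 73.9 and 147 at 6 h, then 64.7 and 62.4 at 20 h. All GM4 arrays were above all GM arrays at 0 h and below both of them at 20 h. The 0 h difference was 2.04-fold (1.03 ± 0.27, limma adjusted p = 0.0199) and was lost without GM4 0 h replicate 3 (0.92) or without GM 0 h replicate 1 (0.66), the lowest GM array. The 20 h difference of -0.40 ± 0.33 did not pass. By 20 h Scd1 had fallen 11.4-fold in GM4 DC (-3.51 ± 0.30, limma adjusted p = 1.99e-06) and 4.24-fold in GM DC (-2.08 ± 0.30, limma adjusted p = 0.000106). The difference between these responses, -1.43 ± 0.42, missed the threshold (limma adjusted p = 0.131). By 6 h the falls were 3.86-fold in GM4 DC and 2.79-fold in GM DC, the second of which was lost without GM 6 h replicate 1 (-1.05, adjusted p = 0.0552).

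A second Scd1 probe set, 94057_g_at, had a correlation of 0.90 with the main one. It gave 238, 240 and 407 in GM4 DC and 79.3, 50.4 and 67.5 in GM DC at 0 h, a 3.73-fold difference (1.90 ± 0.35, limma adjusted p = 0.00251). By 20 h it had fallen 9.62-fold in GM4 DC and 2.86-fold in GM DC, to signals of 12.4 and 18.6 in GM4 DC and 27.5 and 2.43 in GM DC. The remaining one, 94058_r_at, ran from 3.15 to 28.9, was below 16 on 10 arrays and had a correlation of -0.24 with the main one.

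Scd2 is read at its brightest by probe set 95758_at. In GM4 DC it gave 1499, 1913 and 1740 at 0 h, 101, 128 and 135 at 6 h, then 1001 and 945 at 20 h. In GM DC it gave 1518, 2260 and 1882 at 0 h, 287 and 122 at 6 h, then 1547 and 1809 at 20 h. The 6 h arrays lay below all others in both types. Scd2 fell 12.6-fold in GM4 DC (-3.66 ± 0.23, limma adjusted p = 1.36e-07) and 9.19-fold in GM DC (-3.20 ± 0.26, limma adjusted p = 9.31e-07) by 6 h. From 6 to 20 h it rose 7.25-fold in GM4 DC (2.86 ± 0.26) and 8.26-fold in GM DC (3.05 ± 0.28, limma adjusted p = 1.17e-05).

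At 20 h the Scd2 signal averaged 973 ± 39.2 in GM4 DC and 1678 ± 185 in GM DC (SD, n = 2 each). The arrays did not overlap, but the difference of -0.77 ± 0.28 did not pass (limma adjusted p = 0.16). It passed, at -0.77, without GM 6 h replicate 1 or without GM 6 h replicate 2. Relative to 0 h, Scd2 at 20 h was 1.74-fold lower in GM4 DC (-0.80 ± 0.26, limma adjusted p = 0.0416), a call that 8 of the 15 single arrays decided. Without any one of them it did not pass: GM4 0 h replicate 1 (-0.90), 2 (-0.72) or 3 (-0.79), GM4 6 h replicate 2 (-0.80), GM4 20 h replicate 1 (-0.84) or 2 (-0.76), and GM 20 h replicate 1 or 2 (-0.80 each). In GM DC the same difference was -0.15 ± 0.26 and did not pass. At 6 h the difference between the types was -0.58 ± 0.26, which passed only without GM 6 h replicate 2 (-1.15, adjusted p = 0.00588) among the 15 fits that leave out an array.

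The other Scd2 probe set, 162077_f_at, had a correlation of 0.96 with the main one. It gave 313, 193 and 169 at 6 h and 660 and 615 at 20 h in GM4 DC, and 378 and 203 at 6 h and 1065 and 1039 at 20 h in GM DC. It fell 3.60-fold by 6 h in GM4 DC and 3.21-fold in GM DC, and from there to 20 h it rose 2.80-fold in GM4 DC and 3.64-fold in GM DC. Its difference from 0 to 20 h in GM4 DC, -0.36 ± 0.25, did not pass.

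**Figure D2:**
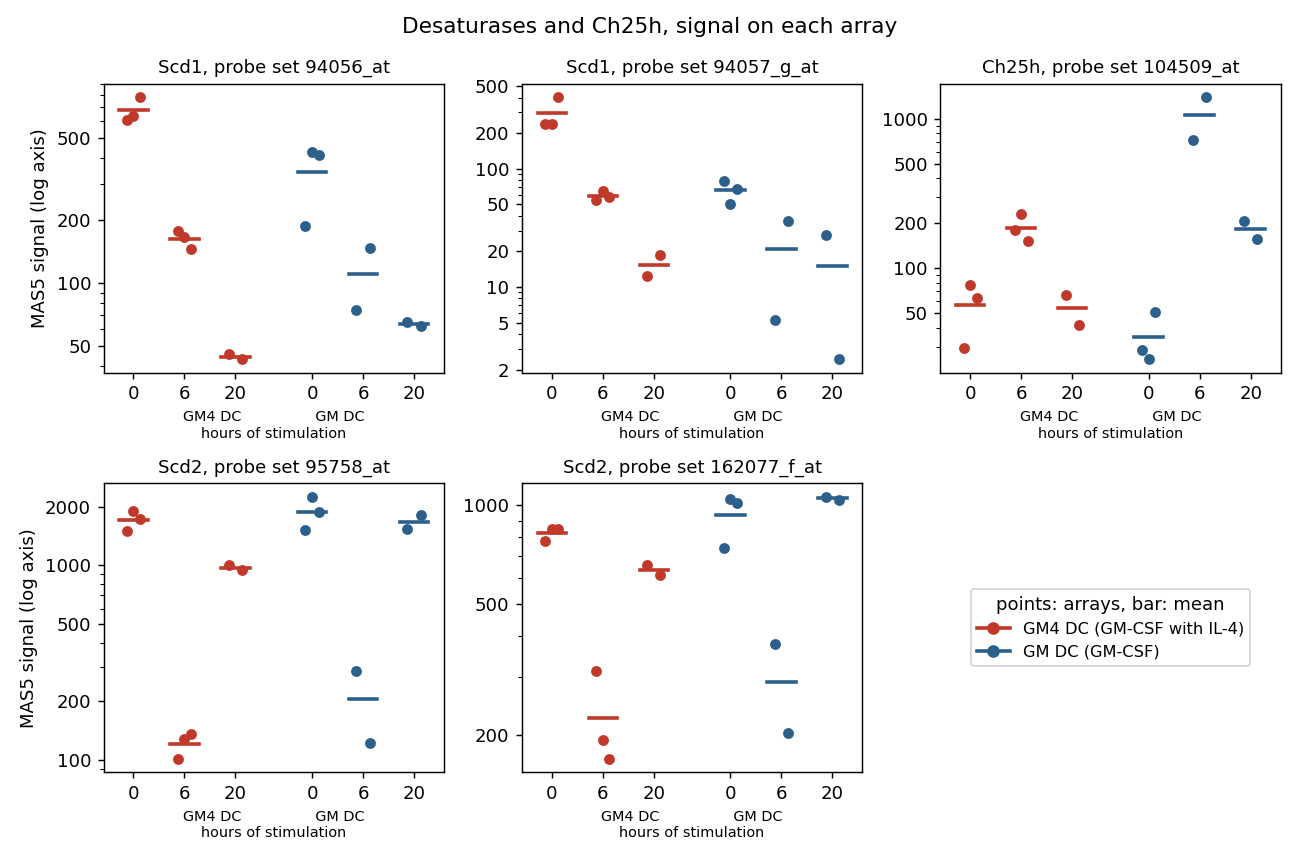
MAS5 signal (vertical log axis) of both Scd1 probe sets above 16 on most arrays, both Scd2 probe sets and Ch25h on each of the 15 arrays, by hours of stimulation, with GM4 DC in red at the left and GM DC in blue at the right; points are arrays and bars are group means. Scd1 falls to 20 h, Scd2 is lowest at 6 h and returns, and Ch25h peaks at 6 h with GM DC at 723 and 1404 above GM4 DC at 152 to 231.

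Ch25h rose after stimulation in both types and far more in GM DC. Probe set 104509_at gave 29.1, 77.7 and 63.4 in GM4 DC at 0 h, 179, 231 and 152 at 6 h, then 66.5 and 41.5 at 20 h. In GM DC it gave 28.5, 24.6 and 51.1 at 0 h, 723 and 1404 at 6 h, then 208 and 157 at 20 h. The types overlapped at 0 h and were apart on all arrays at 6 and 20 h. The 0 h difference, 0.49 ± 0.31, did not pass the test.

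By 6 h Ch25h had risen 2.89-fold in GM4 DC (1.53 ± 0.31, limma adjusted p = 0.00365) and 20.7-fold in GM DC (4.37 ± 0.34, limma adjusted p = 7.81e-07). The difference between the 2 responses was -2.84 ± 0.46, or 7.17-fold less in GM4 DC (limma adjusted p = 0.0099). It was the only one of the 9 genes with such a call, 0 being higher and 1 lower, where 0.443% of all probe sets were higher and 0.515% lower. At 6 h GM4 DC were 5.11-fold below GM DC (-2.35 ± 0.34, limma adjusted p = 0.000632).

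At 20 h Ch25h differed from its 0 h level by -0.01 ± 0.34 in GM4 DC, which did not pass, and it was 3.98-fold above 0 h in GM DC (1.99 ± 0.34, limma adjusted p = 0.000517). The difference of the 20 h responses, -2.00 ± 0.49, missed the threshold (limma adjusted p = 0.0689). It passed without GM4 0 h replicate 1 (-2.32) or without GM 0 h replicate 3 (-2.22). GM4 DC were 2.86-fold below GM DC at 20 h (-1.51 ± 0.38, limma adjusted p = 0.0355). This call was lost without any of the 4 arrays of that time: -1.78 without GM4 20 h replicate 1, -1.25 without GM4 20 h replicate 2, -1.33 without GM 20 h replicate 1 and -1.70 without GM 20 h replicate 2. It was also lost with the RNA quality ratio as a covariate (-1.23, adjusted p = 0.322). The fall from 6 to 20 h passed in both types, at -1.54 ± 0.34 in GM4 DC and -2.38 ± 0.38 in GM DC. The GM4 fall was lost without GM4 20 h replicate 2 (-1.28, adjusted p = 0.138).

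In order of level, Ch25h was highest in GM DC at 6 h (1063 ± 481, SD, n = 2), followed by GM4 DC at 6 h (187 ± 40.1, SD, n = 3) and GM DC at 20 h (182 ± 36.4, SD, n = 2). The arrays of GM4 DC at 6 h and GM DC at 20 h overlapped. The groups at the low end were GM4 DC at 0 h (56.7 ± 25.0, SD, n = 3), GM4 DC at 20 h (54.0 ± 17.7, SD, n = 2) and GM DC at 0 h (34.7 ± 14.3, SD, n = 3), whose arrays also overlapped.

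Several monocyte and macrophage markers were lower in GM4 than in GM DC at each time. Of 9 measured, the number lower in GM4 DC was 8 at 0 h, then 9 at 6 h and then 4 at 20 h. The shares of all probe sets that were lower were 7.12%, 4.74% and 1.56% at these times. At each time 0 of the markers were higher. Their summed signal was 4690 to 8536 on GM4 arrays and 13590 to 24370 on GM arrays. None of them was near 0 at 6 h, when the lowest group mean in GM4 DC was 77.9, for Ccr2, and the lowest in GM DC was 164, also for Ccr2. The difference of 6 h responses was called for 0 of the 9 markers. That is near the shares of all probe sets, 0.443% higher and 0.515% lower. The part of these cells in the Ch25h levels was not tested. Of the genes that act with Ch25h on oxysterols, Cyp7b1, Hsd3b7 and Osbp were measured, and 0 of the 3 differed between 6 and 0 h in either type. Between those times 5.84% of all probe sets were higher and 10% lower in GM4 DC, and 8.52% and 15.7% in GM DC. Osbp, an oxysterol-binding protein, was lower in GM4 DC at 0 h (-0.50), and Hsd3b7, a steroid dehydrogenase that acts on such sterols, rose from 6 to 20 h in GM4 DC (0.95 ± 0.27), while its difference of 0.92 ± 0.30 in GM DC missed the threshold (limma adjusted p = 0.0515).

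Over all 9 genes, the counts of changed genes are set beside the shares of all probe sets. The genes were chosen with earlier results of these data known, so a higher share among them is not independent support. Their main probe sets ran from percentile 52.6 to 94.2 of mean level, whereas the shares include dim probe sets. At 6 h, 1 gene was higher and 4 were lower than at 0 h in GM4 DC, where 5.84% of probe sets were higher and 10% lower. In GM DC 2 were higher and 6 lower, where 8.52% of probe sets were higher and 15.7% lower. At 20 h, 0 were higher and 8 lower than at 0 h in GM4 DC, against 8.71% and 12.3% of all probe sets, and 1 was higher and 7 were lower in GM DC, against 11% and 16%.

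From 6 to 20 h, 1 was higher and 4 were lower in GM4 DC, where 5.68% of probe sets were higher and 6.01% lower, and 1 was higher and 3 were lower in GM DC, where 8.7% and 7.75% were. Between the types, 0 were higher and 1 lower in GM4 DC at 6 h, against 6.39% and 4.74% of all probe sets, and 0 were higher and 1 lower at 20 h, against 3.14% and 1.56%. The 20 h responses differed for 0 of the 9 genes in either direction, where 0.555% of probe sets were higher and 0.708% lower.

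The counts depended on single arrays. The 5 genes called at 6 h in GM4 DC were 3 without GM4 0 h replicate 1, and the 8 called at 20 h in GM4 DC were 3 without GM4 20 h replicate 1. The 4 called between the types at 0 h were 2 without GM4 0 h replicate 3 or without GM 0 h replicate 2. The directions of all called differences were kept in every one of these fits.

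**Figure D3:**
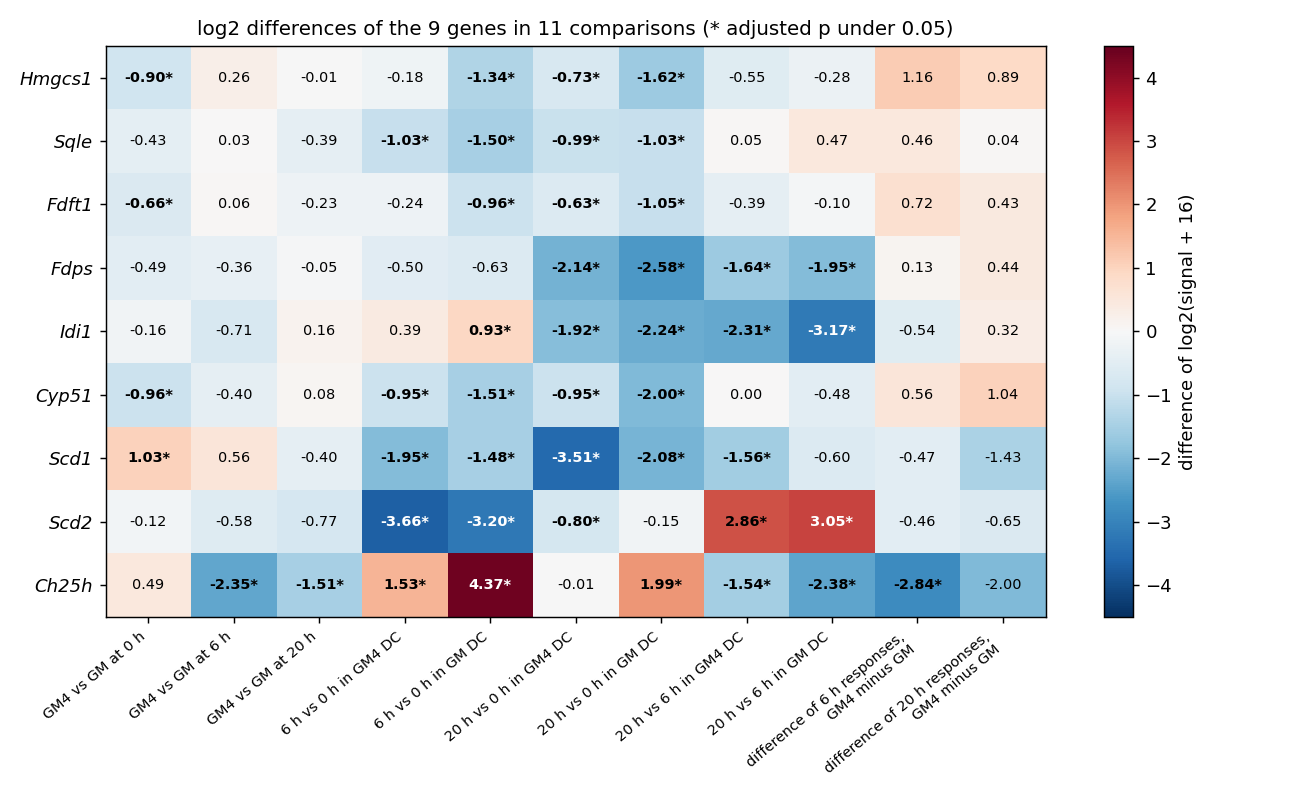
Differences of log2(signal + 16) for the 9 genes (rows) in 11 comparisons (columns), GM4 minus GM or later minus earlier time; red is higher, blue is lower, and an asterisk marks a limma adjusted p under 0.05. The columns for 20 h against 0 h hold falls of all 6 sterol enzymes in both types, and Ch25h has the one called difference between responses, at -2.84.

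Of 15 other enzymes of sterol synthesis on the list, 11 were measured, and more were called lower after stimulation in GM DC than in GM4 DC. That difference in counts was not tested. Gene by gene, the difference of responses was called for 0 of the 11 at 6 h and for 0 at 20 h. Of all probe sets, 0.443% were higher and 0.515% lower in that difference at 6 h, and 0.555% and 0.708% at 20 h. At 0 h, 0 were higher and 2 lower in GM4 DC, Mvd (-1.04 ± 0.23) and Msmo1 (-0.70 ± 0.20), where 6.86% of all probe sets were higher and 7.12% lower. The part of RNA quality in these differences was not tested. At 6 h, 0 were higher and 3 lower than at 0 h in GM4 DC, and 0 were higher and 5 lower in GM DC. The shares of all probe sets that were lower at 6 h were 10% in GM4 DC and 15.7% in GM DC. At 20 h the counts were 0 higher and 2 lower in GM4 DC, near the 12.3% of all probe sets that were lower, and 0 higher and 5 lower in GM DC, where 16% were. The median difference at 20 h was -0.23 in GM4 DC and -0.54 in GM DC.

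Mvd, the decarboxylase that makes isopentenyl diphosphate, had signals of 175, 141 and 138 in GM4 DC at 0 h, 25.7, 41.1 and 53.0 at 6 h, then 107 and 116 at 20 h. Its signals in GM DC were 385, 368 and 245 at 0 h, 64.4 and 33.8 at 6 h, then 145 and 170 at 20 h. Mvd was therefore lowest at 6 h, unlike Idi1 and Fdps, the next enzymes along the pathway. It fell 3.04-fold in GM4 DC (-1.61 ± 0.23) and 5.42-fold in GM DC (-2.44 ± 0.25, limma adjusted p = 1.03e-05) by 6 h, and rose 2.33-fold in GM4 DC and 2.74-fold in GM DC from there to 20 h.

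Dhcr7, the reductase of the last step to cholesterol, fell by 6 h and stayed low. It was lower at 20 h than at 0 h by 1.11 ± 0.23 in GM4 DC and by 1.99 ± 0.23 in GM DC on the log2 scale (3.96-fold in GM DC, limma adjusted p = 1.39e-05). Its signals after stimulation were all below 16, so these folds understate the change. Msmo1, a sterol demethylase, fell 3.28-fold by 6 h in GM DC (-1.72 ± 0.22) and had a change of -0.45 ± 0.20 in GM4 DC that did not pass. The difference between these Msmo1 responses, 1.27 ± 0.29, missed the threshold (limma adjusted p = 0.0562). Lss, the cyclase that makes lanosterol, fell by 1.44 ± 0.26 in GM DC by 6 h, while its change of -0.61 ± 0.23 in GM4 DC did not pass. By 20 h Lss was lower than at 0 h by 0.87 ± 0.26 in GM4 DC and by 0.92 ± 0.26 in GM DC, and both passed. Sc5d, a desaturase of sterols, fell by 6 h by 0.84 ± 0.26 in GM4 DC and 1.67 ± 0.29 in GM DC. From 6 to 20 h Sc5d (1.14 ± 0.32) and Msmo1 (0.84 ± 0.24) rose in GM DC, while their changes in GM4 DC did not pass.

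Fatty acid synthesis, which supplies the substrates of Scd1 and Scd2, was represented by 10 of 17 listed genes. At 6 h, 0 were higher and 5 lower than at 0 h in GM4 DC, where 10% of all probe sets were lower, and 0 were higher and 6 lower in GM DC, where 15.7% were. At 20 h, 1 was higher and 5 were lower in each type, where 12.3% of probe sets were lower in GM4 DC and 16% in GM DC. Fasn, the fatty acid synthase, had signals of 215, 203 and 128 at 0 h and 33.8, 41.3 and 41.9 at 6 h in GM4 DC, against 190, 213 and 183 at 0 h, then 43.3 and 38.5 at 6 h, in GM DC. It fell 3.53-fold in GM4 DC (-1.82 ± 0.35) and 3.71-fold in GM DC (-1.89 ± 0.39) by 6 h. At 20 h it was still 3.71-fold lower than at 0 h in GM4 DC and 5.36-fold lower in GM DC, and no rise of Fasn from 6 to 20 h passed the test.

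The elongase Elovl5 fell 2.47-fold in GM4 DC and 3.90-fold in GM DC by 6 h, and it was 1.70-fold higher in GM4 than in GM DC at that time (0.77 ± 0.16, limma adjusted p = 0.0059). Fads1, a desaturase of polyunsaturated fatty acids, fell by 0.95 ± 0.15 in GM4 DC and by 1.65 ± 0.16 in GM DC by 6 h. Elovl6, another elongase, fell over the same time by 0.59 ± 0.16 in GM4 DC and 1.49 ± 0.18 in GM DC, to signals below 16 on every stimulated array. Acly, which makes cytosolic acetyl-CoA, fell by 6 h by 0.71 ± 0.18 in GM4 DC and by 0.91 ± 0.20 in GM DC. Me1, the malic enzyme that makes NADPH, was the gene that rose, by 1.30 ± 0.18 in GM4 DC and by 0.96 ± 0.18 in GM DC from 0 to 20 h.

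**Figure D4:**
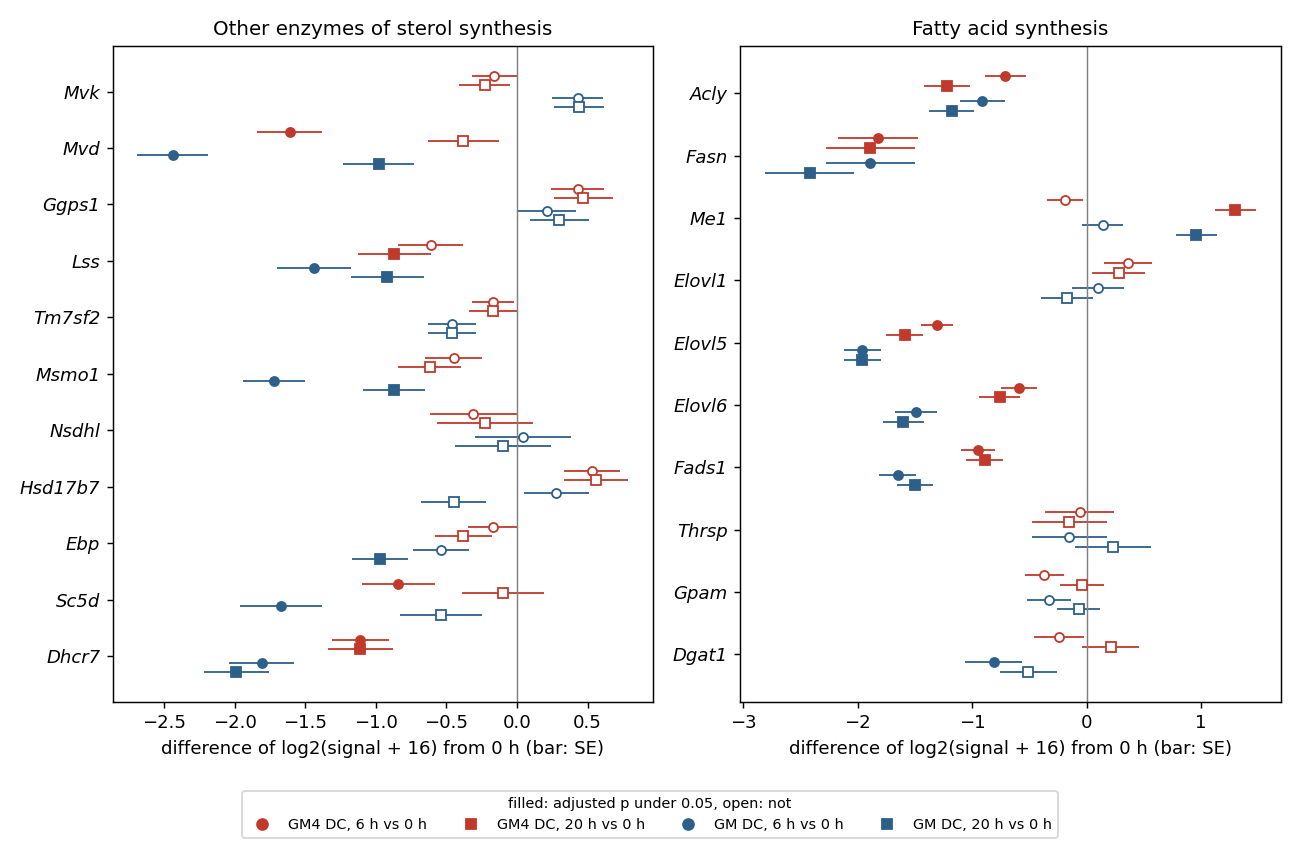
Differences of log2(signal + 16) from 0 h (horizontal axis, bars are standard errors) for other enzymes of sterol synthesis (left) and of fatty acid synthesis (right), with circles for 6 h and squares for 20 h, red for GM4 DC and blue for GM DC; filled symbols have a limma adjusted p under 0.05. Mvd is lowest at 6 h and closer to its 0 h level at 20 h, Fasn and Elovl5 are low at both times, and Me1 is higher at 20 h.

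The genes whose pattern over the 15 arrays was most like that of each enzyme were taken from 4118 genes at or above the median level, as a description. For the mean of the 6 sterol enzymes they were Rnaseh2c (r = 0.972), Ccr2 (0.968), Mrc1 (0.961), Ccdc80 (0.959) and Mki67 (0.955). For Scd1 they were Nav2 (0.946), Ltb and Galm (0.924 each), Hmgn1 (0.918) and Cbfa2t3 (0.916). Scd2 was most like Inpp5d (0.982), Rcan3 (0.98), Arrb1 (0.969), Klhl21 (0.956) and Tmx2 (0.952). Ch25h was most like Chd1 (0.931), Cp (0.904), Mfsd14b (0.892), Sap30 (0.886) and Sdc4 (0.885). These arrays share culture times, cell types and scaling, which enter every such correlation.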

How the data were processed

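Per the labels, biotin-labelled RNA of each of the 15 samples was hybridised to 1 Affymetrix mouse array. The authors deposited an intensity per probe set, not on a log scale. MAS5 is named in the submitters' processing notes, with no version stated there. Groups were taken from the sample titles. Source names at 0 h speak of stimulation for GM4 DC, and for GM4 0 h replicate 1 the protocol gives neither doses nor gradient. Replicates are biological per the labels, and some lacked RNA good enough for an array.

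After 66 controls were removed, 12422 probe sets were analysed as log2(signal + 16) with limma 3.58.1 in R 4.3.3, as 6 group means with an intensity trend (9 residual and 4.76 prior degrees of freedom). Benjamini-Hochberg adjusted p-values under 0.05, over all probe sets per contrast, were called in 11 contrasts. The fit was tested on simulated data. MAS5 scales each array alone, so a change of total RNA would not be seen, and precision is limited by how many arrays there are. Of 12488 probe sets, 10833 had 1 symbol, 396 several and 1193 none, and 10817 had an Entrez number in a RefSeq gene table, with 0 symbols changed by it.

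The 9 genes, the 4 lists of related genes and the 5 marker lists were chosen with earlier results of these data known. List genes were named when called in at least 4 of the 11 contrasts or among the most changed, up to 6 a list. Same-numbered replicates had correlations of their deviations from the group means of 0 to 0.33 over 33 pairs, 16 of them over 0.1, against 2 of 60 pairs with different numbers. Where groups shared 3 numbers, all pairs exceeded 0.1 for GM4 DC at 0 and 6 h and not elsewhere, so the numbers were taken to pair only those samples, as a hint from the data. Between the types at one time, same-numbered arrays had correlations of 0.33, 0.06 and 0.22 at 0 h. At 6 h they had 0.28 and 0.18, and at 20 h 0.3 and 0.3. Pairing across the types was therefore not settled by this rule. Alternatives were a filter at the 40th percentile, an RNA quality covariate, a replicate block, offsets of 1 and 64, median centring, quantile normalization, the mean of a gene's probe sets, and leaving out arrays. Promoter letters are from RefSeq, GRCm38.p6.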

Additional observations from a re-analysis of the deposited data

Results flagged for a closer look

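Ch25h stood out because its response to 6 h of LPS and IFN-γ differed between the types by a direct test of that difference. The rise in GM4 DC minus the rise in GM DC was -2.84 on the log2(signal + 16) scale, with a standard error of 0.46 and a limma adjusted p of 0.0099. All 3 GM4 arrays at 6 h (152 to 231) lay below both GM arrays (723 and 1404), and the unstimulated arrays of the types overlapped.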

How the results depend on the processing

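Of 45 called differences of the 9 genes, 29 were called in every one of up to 24 settings, 9 of which do not leave out a single array, and no difference that passed changed direction. For GM4 against GM DC, the number of genes called at 6 h was 2 with an offset of 64, the filter on dim probe sets, the replicate block or the RNA quality covariate, where the fit reported above called 1. With that covariate it was 2 in place of 4 at 0 h and 0 in place of 1 at 20 h. A further setting left out 2 arrays together, each the highest on a different control. GM 0 h replicate 3 had the highest Gapdh ratio, 2.46. GM 6 h replicate 1 had the highest mean log2(signal + 16) of the hybridization controls, 10.3, a measure on which all GM arrays lay above all GM4 arrays. The number with differing 6 h responses was 2 in place of 1 with the filter or without those 2 arrays. That for 20 h responses was 1 in place of 0 with quantile normalization, the filter or without those arrays. The Ch25h difference of 20 h responses passed at -2.00 (0.0308) with the filter, -2.07 with quantile normalization and -2.22 without those arrays. Cyp51 at 20 h in GM4 DC did not pass with quantile normalization (-0.89, adjusted p = 0.0535), and Scd2 did not with the mean of its probe sets (-0.58) or the block (-0.77, adjusted p = 0.069). Without the 2 arrays the 6 h change in GM DC was 0.77 for Idi1 and -0.88 for Scd1, and neither passed.

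The replicate numbers paired GM4 DC at 0 and 6 h by the rule used, and in that comparison the block changed no call of the 9 genes. Under the replicate block, the types differed in 4 genes at 0 h, in 2 genes at 6 h and in 1 gene at 20 h, and Fdps at 6 h in GM DC passed (-0.77, adjusted p = 0.0129), as did Idi1 between the types at 6 h (-0.71, adjusted p = 0.0303).

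Leaving out each array in turn gave 2 to 4 called genes between the types at 0 h, and 1 to 2 at 6 h, and then 0 to 2 at 20 h. For 6 h against 0 h it gave 3 to 6 in GM4 DC and 6 to 9 in GM DC, the 6 without GM 6 h replicate 1. For 20 h against 0 h it gave 3 to 8 in GM4 DC and 7 to 8 in GM DC, and for 20 h against 6 h 4 to 6 in GM4 DC and 4 to 4 in GM DC. The differing 6 h responses numbered 1 to 2 and the 20 h ones 0 to 1. The cause of these shifts was not tested. Signals below 16 limit what can be said of Dhcr7 and Elovl6 after stimulation and of the dim probe sets of Fdps and Scd1.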

Other observations

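Genes of sterol regulation and transport, 11 of 21 listed and measured, changed in both directions. Between the types, 0 were higher and 5 lower in GM4 DC at 0 h, where 7.12% of all probe sets were lower. At 6 h, 0 were higher and 3 lower, where 4.74% of all probe sets were lower. At 20 h, 1 was higher and 1 lower, where 3.14% of all probe sets were higher and 1.56% lower. Nr1h3, the oxysterol receptor LXRα, had signals of 49.3, 49.4 and 57.1 at 0 h, then 244 and 252 at 20 h, in GM4 DC, against 114, 104 and 101 at 0 h, then 288 and 293 at 20 h, in GM DC. It rose 3.89-fold in GM4 DC (1.96 ± 0.16, limma adjusted p = 1.28e-06) and 2.50-fold in GM DC (1.32 ± 0.16) by 20 h, while the sterol enzymes fell.

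Abca1, a cholesterol exporter and a target of LXR, took another course. Its signals in GM4 DC were 459, 610 and 677 at 0 h, 247, 154 and 132 at 6 h, then 967 and 902 at 20 h. In GM DC they were 988, 822 and 1131 at 0 h, 922 and 705 at 6 h, then 1380 and 1199 at 20 h. At 6 h GM4 DC were 4.38-fold below GM DC (-2.13 ± 0.23, limma adjusted p = 9.52e-05), the fall from 0 h passing in GM4 DC (-1.65 ± 0.21) and not in GM DC (-0.27 ± 0.23). The difference between these 6 h responses, -1.39 ± 0.31, missed the threshold (limma adjusted p = 0.0515). Such a difference was called for 0 of the 11 genes, where 0.443% of all probe sets were higher and 0.515% lower. For the 20 h responses, 1 of the 11 was higher and 0 lower in GM4 minus GM DC, where 0.555% of all probe sets were higher and 0.708% lower. Npc1, which moves cholesterol out of lysosomes, fell 2.31-fold in GM4 DC and 2.46-fold in GM DC by 6 h and rose 2.90-fold in GM4 DC and 2.53-fold in GM DC from there to 20 h, as Scd2 and Mvd did. Lpl, lipoprotein lipase, fell by 1.04 ± 0.19 in GM4 DC and by 2.36 ± 0.19 in GM DC by 20 h. Neutrophil markers, all 10 measured, were lower at 20 h than at 0 h for 7 genes in GM4 DC and 6 in GM DC, and 0 were higher. The shares of all probe sets that were lower were 12.3% in GM4 DC and 16% in GM DC.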
